A study of Mus musculus with 26 samples.

Results

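K1030R cells, brown preadipocytes that carry a kinase-dead human insulin receptor, were compared with IR cells, which carry the wild-type human receptor, both without insulin. The comparison holds the 3 K1030R and 3 IR libraries labelled as unstimulated, 6 of the 26 libraries of the series, and every gene with more than 0.5 CPM (the gene's share of a library's counts, scaled to one standard library size) in at least 4 of the 26 libraries, 15402 of 52962 genes. It asks which genes differ in level between cells with a wild-type receptor and cells with a receptor that lacks kinase activity when no insulin is added. The other lines have a C-terminus deletion (∆CT), the juxtamembrane domain only (JMO) or no receptor (DKO). Their values place the levels of genes named here, and their libraries also entered the filter and the fit behind the calls.

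All lines descend from immortalized brown preadipocytes of newborn mice with floxed genes for the insulin and IGF-1 receptors. SV40 T antigen was used for immortalization and Cre, delivered by adenovirus, for removal of both receptors, which gave the DKO cells. The FLAG-tagged human receptor (B isoform) was then returned by retrovirus, as wild-type sequence in IR cells and with the lysine-to-arginine change named K1030R in K1030R cells, under hygromycin selection. Cells were kept without serum for 6 h before RNA was taken. The insulin libraries used below differ by 100 nM insulin for the last 15 min. Each receptor was read in 1 line, so the mutation and any other difference between the lines cannot be told apart. The labels number the replicates without saying how they were made. They are called dishes here, and p-values measure the spread between them.

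The insulin receptor is a tyrosine kinase that autophosphorylates when insulin binds and then passes the signal through IRS proteins, PI3-kinase and AKT to metabolism, and through SHC, RAS and ERK to growth. AKT keeps FOXO factors out of the nucleus, and so holds FOXO target genes down. The lysine changed in K1030R sits in the ATP site and is needed for phosphate transfer. Brown preadipocytes are fibroblast-like progenitors that make collagen, fibrillin and other matrix proteins and, like most cells, keep a low tone of interferon-stimulated genes, whose products act against viruses.

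The stretch of the mouse *Insr* coding sequence around that lysine is printed to show where the kinase was changed. It was read from the GENCODE transcript on GRCm38, 5′ to 3′ on the minus strand of chromosome 8, chr8:3163294-3163356, in exon 16 of 21, and the capitals mark the lysine codon, codon 1047 of 1372 in the mouse gene. The transgenes are human, so it stands for the site and is not the sequence in the cells.
Insr: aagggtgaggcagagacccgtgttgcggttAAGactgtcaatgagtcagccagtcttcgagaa

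Library totals were 17228982 to 19883841 counts in K1030R and 19084248 to 23779162 in IR cells, and a CPM of 0.5 is about 10 counts. Mitochondrial genes took 3.54% to 3.62% of the counts in K1030R and 3.09% to 3.72% in IR libraries. Between dishes of 1 group the chi-square of the counts, divided by its degrees of freedom, was above counting noise. It was 2.84 to 4.13 between K1030R dishes and 6.63 to 7.41 between IR dishes, which varied more. The labelled cell type was checked against its markers: all 10 fibroblast and preadipocyte markers passed the filter, while *Adipoq*, *Cidec* and *Ucp1* of mature adipocytes, *Myod1*, *Pax7* and *Myf6* of skeletal muscle, *Adgre1* and *Tyrobp* of macrophages and *Sox10* of Schwann cells had 0 counts in all 6 libraries. The filter runs over all 26 libraries, and *Lum* was below 0.5 CPM in every K1030R dish (0.118, 0.201 and 0.103). Its passing therefore does not speak for that line. Of the brown preadipocyte list only *Zfp521* passed the filter, and *Myf5* had 0 counts.

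*Insr* (ENSMUSG00000005534), counted on mouse transcripts although the transgenes are human, had a CPM of 76.9, 69.8 and 66.7 in the K1030R dishes and 65.9, 67.8 and 69.3 in the IR dishes. The groups overlapped, and the log2 fold change, K1030R minus IR, was 0.07 ± 0.05 (adjusted p = 0.277). DKO cells, with no transgene, had 23.8 ± 1.32 (mean ± SD, n = 3), so part of these counts does not come from it, and a count does not show a point mutation. *Igf1r* had 35.2, 32.8 and 32.8 in K1030R and 35.7, 35.3 and 34.4 in IR dishes, also overlapping (log2 -0.07 ± 0.05, adjusted p = 0.383), and 27.1 ± 2.06 in DKO cells. Gene counts of *Insr* and *Igf1r* in DKO cells were therefore not near 0 and do not check the deletion.

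More genes were lower than higher with the kinase-dead receptor. In edgeR's test against a minimum fold of 1.5, 160 of the 15402 genes (1.04%) were called at an adjusted p below 0.05, of which 132 were lower in K1030R than in IR cells (0.857% of genes tested) and 28 higher (0.182%), so 82.5% of the called genes were lower. The lower genes had log2 fold changes from -2.91 to -0.72 apart from *C4b*, with a median of -1.37, and 17 of them were beyond 4-fold. The higher genes ran from 0.74 to 3.49 apart from *Spata5l1*, with a median of 1.21, and 6 were beyond 4-fold. *C4b* and *Spata5l1* had 0 counts in 1 group, so their fitted folds are no bound, and the medians were the same with both at the bounds given below. Without K1030R dish 1 the higher genes were 18. All 160 had values that did not overlap between the groups, which also held for 39.5% of all genes tested. With no minimum fold, 2503 genes were lower (16.3%) and 2147 higher (13.9%), and the median over all genes was -0.01, so most of the differences in the kinase-dead line were small. The counts given below for each gene list are to be read against these shares.

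**Figure D1:**
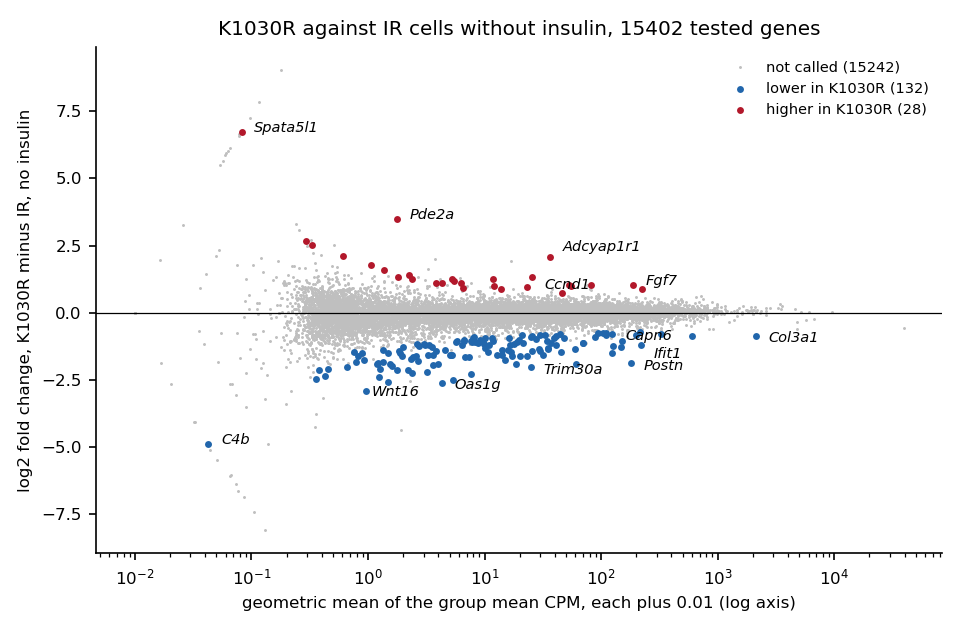
Log2 fold change, K1030R minus IR cells without insulin, against the geometric mean CPM of the 2 groups (log axis, 0.01 added) for 15402 genes. Blue points are the 132 genes called lower and red points the 28 called higher, and the blue genes reach to more abundant transcripts such as *Col3a1* and *Postn*. *C4b* and *Spata5l1*, with 0 counts in 1 group, are drawn at their fitted values.

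The 6 libraries of the same lines with insulin are not compared in this contrast, but they share its fit. Leaving out 1 of them kept 157 or 158 of the 160 calls. Between the lines with insulin, 160 genes were called lower (1.04%) and 33 higher (0.214%) in K1030R. Of the 132 genes lower without insulin, 97 were called lower again and all 132 had a negative log2 fold change, with a median of -1.19. Of the 28 higher genes, 17 were called higher again and 27 were positive, with a median of 1.12. None was called in the opposite direction. The difference between the lines itself changed with insulin in 57 genes (0.37%) in edgeR's interaction test, 182 without IR dish 3, and 1 of the 160 called genes, *Spata5l1*, was among the 57. These libraries come from the same 2 lines, so they repeat the dishes and not the making of a line.

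Of the gene lists, which were chosen with earlier results of these data known, that of interferon-stimulated genes held the most genes called lower. Of 65 tested members of the list, 18 were called lower and none higher in K1030R (0.857% of all genes tested were called lower), 59 were lower with no minimum fold (16.3% of all genes), and all 65 had a negative log2 fold change with a median of -0.80, against -0.01 over all genes. The range was -2.63 to -0.05, and *Ifitm1*, *Ifitm2*, *Isg20*, *Irf1*, *Uba7* and *Psmb8* did not pass either test. In 62 of the 65 every K1030R dish lay below every IR dish, and 39.5% of all genes tested did not overlap in either direction. In the insulin libraries 13 of the 18 were called lower again. A fit to the 6 libraries alone called 29 members lower, and leaving out 1 of the 6 gave 12 (without K1030R dish 1) to 18.

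*Oas1g*, of the oligoadenylate synthetases that detect double-stranded RNA and activate RNase L, had a CPM of 1.24, 2.52 and 1.35 in K1030R and 10.2, 10.8 and 11.1 in IR dishes, 6.17-fold lower (log2 -2.63 ± 0.23, adjusted p = 6.35e-06 in edgeR's minimum-fold test). *Oas2* of the same family was at 7.34, 11.2 and 10.1 against 36.6, 37.7 and 34.9 (log2 -1.92 ± 0.29, adjusted p = 0.00604). Both genes were well separated between the groups. *Rsad2*, which encodes viperin, an enzyme that makes a chain-terminating nucleotide, had 1.3, 1.01 and 0.983 in K1030R and 5.21, 5.76 and 4.64 in IR dishes (log2 -2.25 ± 0.16, adjusted p = 2.41e-09). Its neighbour on chromosome 12, *Cmpk2*, a nucleotide kinase, was at 1.54, 1.41 and 1.5 against 7.98, 6.68 and 5.68 (log2 -2.20 ± 0.24, adjusted p = 3.23e-05). Neither gene had a K1030R dish near the IR range. *Trim30a*, a tripartite motif protein, had 11.2, 13.1 and 12.3 in K1030R and 50.2, 49.8 and 51.1 in IR dishes (log2 -2.04 ± 0.18, adjusted p = 1.94e-05). *Iigp1*, which is not on the list, an immunity-related GTPase that attacks the vacuoles of intracellular parasites, was at 31.4, 34.1 and 27.5 against 119.5, 123 and 108 (log2 -1.92 ± 0.19, adjusted p = 7.26e-05). All these calls held when any of the 6 libraries was left out. The related GTPase *Tgtp2*, also off the list, was called (log2 -2.58 ± 0.44, adjusted p = 0.00731), but not without K1030R dish 1 (adjusted p = 0.0639) or dish 3 (0.0658).

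Other called members were lower by smaller folds than *Oas1g*. *Isg15*, a ubiquitin-like protein that is joined to other proteins during the interferon response, had a CPM of 15.9, 20.4 and 18.5 in K1030R and 62, 57.2 and 44.1 in IR dishes (log2 -1.57 ± 0.20). *Ifit1*, which binds viral RNA that lacks the host cap methylation, was at 144, 153 and 132 against 335, 359 and 308 (log2 -1.22 ± 0.17). *Oas1a* had 8.14 ± 0.159 in K1030R and 27.6 ± 2.47 in IR cells (mean ± SD, n = 3), *Mx1*, a dynamin-like GTPase against influenza virus, 2.98 ± 0.325 and 8.82 ± 0.837, and *Zbp1*, a sensor of Z-form nucleic acid, 1.27 ± 0.346 and 4.29 ± 0.476. These 5 genes were chosen after their values were seen. The *Oas1* genes, like the guanylate-binding and immunity-related GTPases, have close copies, so the split of reads among copies is uncertain. Next to *Iigp1* on chromosome 18, its relatives *Gm4951* (2.23 ± 0.284 against 12.8 ± 0.829), *F830016B08Rik* (3.42 ± 0.396 against 16.8 ± 1.67) and *Gm4841* (3 ± 0.557 against 8.98 ± 0.891) were called lower too.

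Set beside the other lines, K1030R cells had among the lowest levels of these genes. *Oas1g* was at 60.2 ± 3.38 in DKO, 45.7 ± 6.25 in JMO and 2.39 ± 0.908 in ∆CT cells (mean ± SD, n = 3), and *Trim30a* at 241 ± 22.4, 144 ± 12.3 and 10.03 ± 4.42. For all 18 called members the highest mean lay in DKO or JMO cells. Against DKO, *Oas1g* had a log2 fold change of -5.12 in K1030R and -2.49 in IR cells, and *Rsad2* -5.35 and -3.10. These comparisons share the DKO libraries. Between ∆CT and K1030R cells the log2 difference was 0.46 for *Oas1g* (adjusted p = 0.523), 0.13 for *Rsad2* (0.861) and -0.30 for *Trim30a* (0.581), none of which passed the test. In these genes the mean levels ran from DKO and JMO through IR to K1030R and ∆CT.

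**Figure D2:**
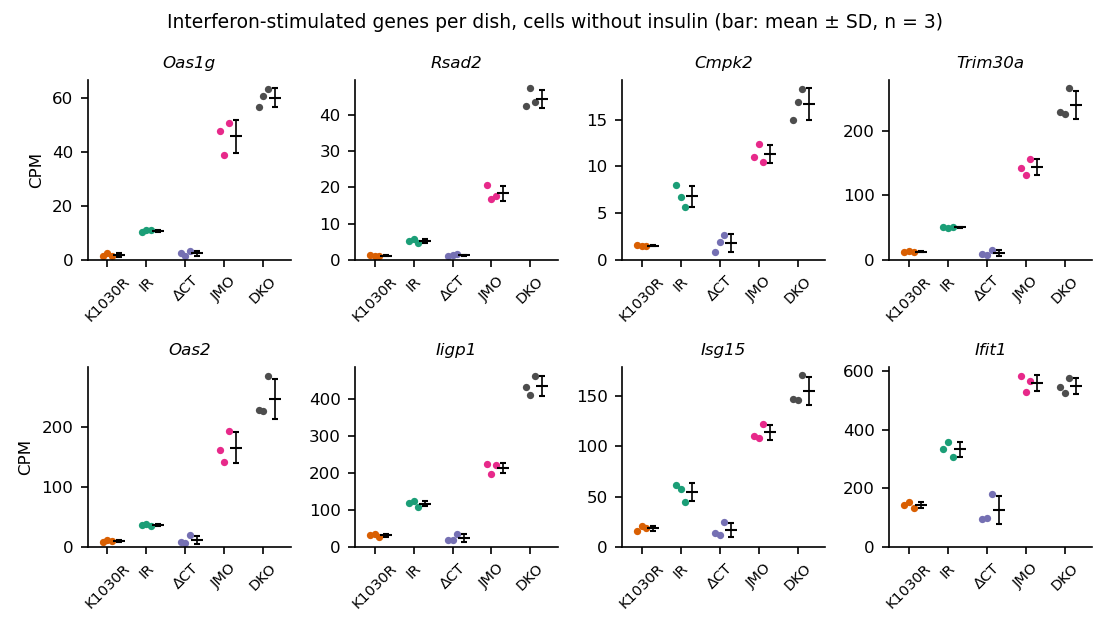
CPM of 8 interferon-stimulated genes in each dish without insulin, with points for dishes and a bar for mean ± SD (n = 3) in K1030R, IR, ∆CT, JMO and DKO cells. K1030R and ∆CT dishes lie lowest, IR dishes above them and JMO and DKO dishes highest in every panel.

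Promoter stretches of called interferon-stimulated genes are printed because these members were lower together, and many genes of this class are known to carry a response element for the STAT and IRF factors of interferon signalling. RefSeq promoters (GRCm38.p6, 250 bases before to 50 after the start) were matched by symbol for 12 of the 18 called members, and the search was for TTTCNNTTT on either strand, where matches may overlap. Of the 13757 promoters of tested genes 8.25% held a match. The table held too few promoters of the 18 members, and of the 132 lower genes (81), for a share to stand for either set. Each stretch is 100 bases from the part of the promoter before the start, placed to take in the matches nearest to it and so not always next to the start, 5′ to 3′ on the gene's strand, with matches in capitals. They lie at chr5:120887614-120887713 for *Oas1g* (minus strand), chr12:26456493-26456592 for *Rsad2* (minus), chr7:104465194-104465293 for *Trim30a* (minus), chr4:156200819-156200918 for *Isg15* (minus) and chr19:34640765-34640864 for *Ifit1* (plus). A match is a run of letters and was not tested as a site, and *Cmpk2* and *Oasl2* held none in this window.
Oas1g: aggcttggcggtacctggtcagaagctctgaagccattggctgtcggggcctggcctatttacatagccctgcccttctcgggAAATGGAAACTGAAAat
Rsad2: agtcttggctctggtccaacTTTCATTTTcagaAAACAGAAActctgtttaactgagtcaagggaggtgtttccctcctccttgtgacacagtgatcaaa
Trim30a: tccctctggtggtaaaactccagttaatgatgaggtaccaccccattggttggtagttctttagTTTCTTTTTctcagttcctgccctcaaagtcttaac
Isg15: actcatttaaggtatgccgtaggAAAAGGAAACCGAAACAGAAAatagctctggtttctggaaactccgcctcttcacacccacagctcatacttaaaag
Ifit1: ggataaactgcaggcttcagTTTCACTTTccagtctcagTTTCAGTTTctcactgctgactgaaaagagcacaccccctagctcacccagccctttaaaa

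Antigen presentation by MHC class I, which interferon also raises, moved the same way by less. Of 22 tested members of that list none was called, while 16 were lower (16.3% of all genes) and 1 higher (13.9%) with no minimum fold, with a median of -0.37. *B2m*, the light chain of all class I molecules, had a CPM of 244, 264 and 246 in K1030R and 369, 358 and 331 in IR dishes, without overlap (log2 -0.49 ± 0.04, adjusted p = 5.7e-10). The higher member was *Calr*, a chaperone of the endoplasmic reticulum (log2 0.25 ± 0.03, adjusted p = 1.73e-08). Of 19 complement and acute phase genes, 1 was called lower and 1 higher. The lower one, *C4b* of the complement cascade, had 0 counts over the 3 K1030R libraries and 11 over the 3 IR libraries, at least 3.31-fold lower when 3 counts over the group are taken as the limit, and its call was lost when any of the 6 libraries except IR dish 2 was left out (adjusted p of 0.0903 to 0.186).

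Several genes of the fibroblast matrix were also called lower. Periostin (*Postn*), a matrix protein of growing and wounded connective tissue, had a CPM of 81.9, 108 and 88.5 in K1030R and 322, 350.1 and 365 in IR dishes, 3.71-fold lower (log2 -1.89 ± 0.13, adjusted p = 1.53e-06 in edgeR's minimum-fold test). *Fbn2*, fibrillin-2 of the microfibrils, was at 10.2, 12.2 and 12 against 36, 35.1 and 35.9 (log2 -1.63 ± 0.07, adjusted p = 5.13e-13). In both genes no K1030R dish came near the IR range. *Col3a1*, the chain of type III collagen, one of the most abundant transcripts called, had 1509, 1666 and 1581 in K1030R and 2889, 2951 and 2808 in IR dishes (log2 -0.86 ± 0.04, adjusted p = 3.74e-07). *Col11a1*, which sets the width of collagen fibrils, was at 452, 449 and 433 against 819, 816 and 807 (log2 -0.87 ± 0.03, adjusted p = 4.71e-08).

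Collagen chains were lower only in part. Of 32 tested collagen chains 4 were called lower (*Col3a1*, *Col11a1*, *Col14a1* and *Col6a5*) and none higher, 16 were lower and 4 higher with no minimum fold, and the median was -0.15, where 0.857% of all genes were called lower and, with no minimum fold, 16.3% were lower and 13.9% higher. *Col14a1*, a collagen of fibril surfaces, had 0.608 ± 0.213 in K1030R and 2.29 ± 0.521 in IR cells (mean ± SD, n = 3). *Col6a5* was at 0.172 ± 0.158 against 0.786 ± 0.241, and lost its call without K1030R dish 1 (adjusted p = 0.335), K1030R dish 3 (0.322), IR dish 1 (0.285) or IR dish 3 (0.0903). *Col1a1*, the main chain of type I collagen, had 5913, 6286 and 6098 in K1030R and 7653, 7357 and 6746 in IR dishes, a log2 fold change of -0.25 ± 0.04 that was below the minimum fold (adjusted p = 1.77e-05 without one).

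Small leucine-rich proteoglycans, which coat collagen fibrils, and related genes held 4 calls. Of 23 members 4 were called lower (*Postn*, *Dcn*, *Lum* and *Podn*), 12 were lower and 2 higher with no minimum fold, and the median was -0.27. *Dcn*, decorin, had 0.592, 1.21 and 0.673 in K1030R and 2.86, 4.18 and 4.1 in IR dishes (log2 -2.14 ± 0.25, adjusted p = 2.97e-05). *Podn*, podocan, was at 0.404 ± 0.134 against 1.47 ± 0.191. *Lum*, lumican, was at 0.141 ± 0.0527 against 0.823 ± 0.234, and its call was lost without any K1030R dish or without IR dish 2 or 3 (adjusted p of 0.0735 to 0.26). Of 28 elastic fibre and crosslinking genes *Fbn2* and *Efemp1* were called lower and *Ltbp2* higher, and 10 were lower and 6 higher with no minimum fold. *Efemp1*, fibulin-3, had 25.5, 27.1 and 23.1 in K1030R and 54.6, 57.5 and 52.4 in IR dishes (log2 -1.12 ± 0.06), and *Ltbp2*, a latent TGF-β binding protein, 2.9, 3.27 and 2.43 and 1.15, 1.14 and 1.09 (log2 1.34 ± 0.18).

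Basement membrane, adhesion and protease genes held further calls. *Lama4*, a laminin chain, had a CPM of 17.2, 20.3 and 17.9 in K1030R and 46.4, 47.2 and 47.2 in IR dishes (log2 -1.34 ± 0.06, adjusted p = 3.3e-11). *Nid2*, nidogen-2, which links laminin to collagen IV, was at 142, 157 and 143 against 269, 262 and 266 (log2 -0.85 ± 0.05, adjusted p = 0.000285), and *Itga10*, a collagen-binding integrin chain, at 18.4, 21.1 and 19.5 against 40.01, 38.5 and 37.2 (log2 -0.97 ± 0.08, adjusted p = 0.000712). These 3 were the genes called among 30 integrins and laminins, of which 11 were lower and 3 higher with no minimum fold. *Itga8* was at 2.2 ± 0.123 against 3.98 ± 0.165 (log2 -0.84 ± 0.17) and did not pass the test against the minimum fold (adjusted p = 0.863, and 0.000196 without a minimum fold). Of 33 proteases and inhibitors *Adamts17*, *Mmp3*, *Mmp2* and *Capn6* were called lower and none higher, and 15 were lower and 5 higher with no minimum fold, against 16.3% and 13.9% of all genes. *Mmp2*, gelatinase A, had 19.95, 24 and 21 in K1030R and 57.2, 56.2 and 53.5 in IR dishes (log2 -1.36 ± 0.06, adjusted p = 3.3e-11). *Capn6*, a calpain without a catalytic cysteine, was at 76.1, 89 and 78.9 against 196, 195 and 192 (log2 -1.25 ± 0.09), *Adamts17* at 1.05 ± 0.387 against 4.59 ± 0.386 and *Mmp3*, stromelysin-1, at 1.35 ± 0.159 against 4.27 ± 0.664.

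In the other lines these genes were placed differently from the interferon group and from each other. *Postn* was at 51 ± 3.25 in DKO, 58.9 ± 8.04 in JMO and 142 ± 31.6 in ∆CT cells, so IR cells had the highest level, and *Fbn2* at 0.852 ± 0.124, 6.33 ± 0.268 and 31.1 ± 2.89. *Col3a1* had 1083 ± 45.8 in DKO, 719.8 ± 13.2 in JMO and 1970.4 ± 121 in ∆CT cells. Against DKO the log2 fold change of *Postn* was 0.86 in K1030R and 2.76 in IR cells, and that of *Col3a1* 0.55 and 1.41. *Mmp2* and *Lama4* were nearly level in IR and DKO cells, at 55.6 ± 1.94 and 58.2 ± 1.99 for *Mmp2* and 46.9 ± 0.489 and 51.5 ± 1.88 for *Lama4*, with K1030R cells below both (log2 -1.43 and -1.48 against DKO). For *Fbn2*, ∆CT cells were higher than K1030R cells by 1.43 on the log2 scale (adjusted p = 6.78e-16).

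**Figure D3:**
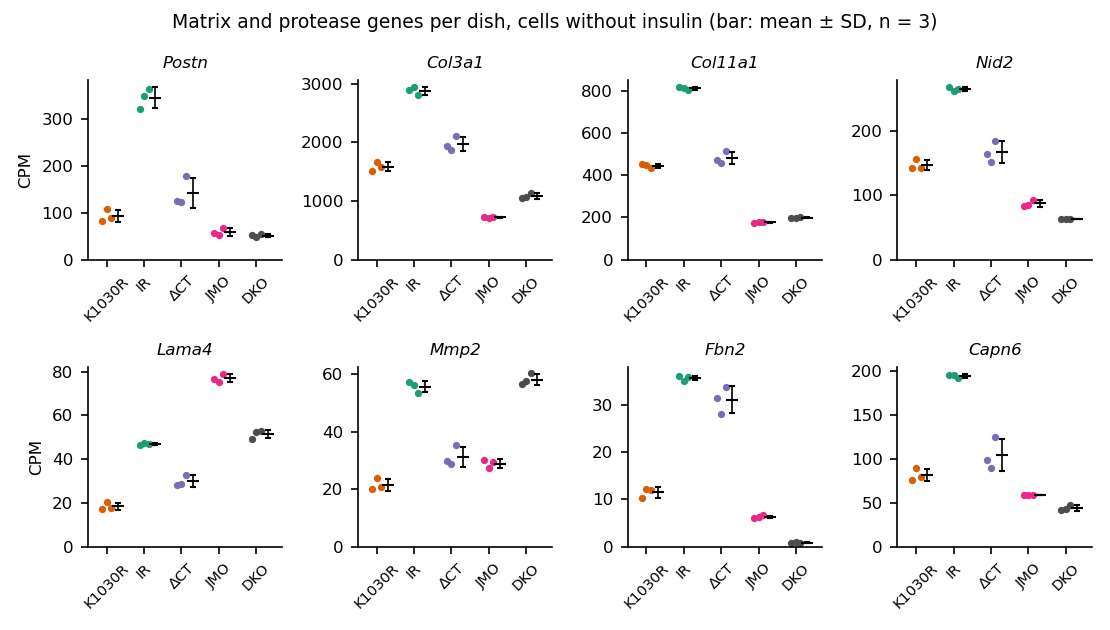
CPM of 8 matrix and protease genes in each dish without insulin, with points for dishes and a bar for mean ± SD (n = 3) in 5 lines. In every panel the 3 K1030R dishes lie below the 3 IR dishes, while the DKO mean is lowest for *Postn*, *Nid2*, *Fbn2* and *Capn6* and a little above the IR mean for *Mmp2* and *Lama4*.

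Markers of the progenitor itself were part of this group. The summed CPM of the 10 fibroblast and preadipocyte markers was 10100 to 10600 in K1030R and 12100 to 13300 in IR dishes, and 4 of the 10 (*Pdgfra*, *Dcn*, *Lum* and *Col3a1*) were called lower. With no minimum fold 5 of the 10 were lower and 2 higher, namely *Thy1* (28.8 ± 0.848 against 21.8 ± 1.07) and *Pdgfrb* (594 ± 5.04 against 559 ± 3.38), and most of the summed difference came from *Col3a1* and *Col1a1*. *Pdgfra*, the receptor for PDGF-A that marks adipocyte progenitors, had 167, 175 and 164 in K1030R and 275, 283 and 276 in IR dishes (log2 -0.72 ± 0.04, adjusted p = 0.00785), a call lost without K1030R dish 3 (0.0951) or IR dish 2 (0.0542). *Zfp521*, a zinc-finger regulator of adipocyte fate, was at 51.7 ± 3.83 against 77.9 ± 5.36 (log2 -0.59 ± 0.06, adjusted p = 1.02e-09 without a minimum fold). The 7 smooth muscle and pericyte markers summed to 794 to 831 in K1030R and 568 to 635 in IR dishes. Of these *Acta2* had 576 ± 18.4 against 400.4 ± 20.8 and *Tagln* 118 ± 3.71 against 77 ± 11.8, both higher with no minimum fold and not called, and *Rgs5* was lower (3.65 ± 0.433 against 5.45 ± 0.467). The median of the 5 that passed the filter was -0.01. Of 24 adipocyte differentiation genes *Pdgfra* was the 1 called, and 4 were lower and 9 higher with no minimum fold. Of 42 genes of the TGF-β and BMP pathway *Tgfbi*, a matrix protein induced by TGF-β, was the 1 called (64.9 ± 7.62 against 123 ± 4.17), not without K1030R dish 1 (0.0965) or 3 (0.0905) or IR dish 1 (0.058), and 12 were lower and 5 higher. The part of the marker shifts in the matrix genes was not tested, and in such bulk libraries fewer cells of a type and less RNA per cell cannot be told apart.

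Genes of the Wnt pathway, which steers mesenchymal progenitors away from fat, were lower where they differed, with 1 exception. Of 37 tested members 3 were called lower (0.857% of all genes) and none higher, 18 were lower (16.3% of all genes) and 1 higher (13.9%) with no minimum fold, and the median was -0.21. *Wnt16*, a ligand, had 0.592, 0.453 and 0.569 in K1030R and 3.5, 2.5 and 2.57 in IR dishes, 5.32-fold lower (log2 -2.41 ± 0.25, adjusted p = 1.55e-06). *Lgr5*, a receptor for R-spondins that prolongs Wnt signals and is itself a Wnt target, was at 6.57, 7.35 and 5.33 against 16.9, 16.6 and 14.2 (log2 -1.31 ± 0.11, adjusted p = 8.02e-06). The receptor *Fzd1* was at 84.1 ± 4.87 against 143 ± 12.1 (log2 -0.77 ± 0.06, adjusted p = 0.0287), but lost its call without any single library except K1030R dish 2 or IR dish 3 (adjusted p of 0.109 to 0.263).

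Single genes of channels, calcium handling and carbonic anhydrase were also called lower. *Trdn*, triadin of the calcium release complex, had 1.01, 0.604 and 0.776 in K1030R and 3.37, 2.77 and 3.26 in IR dishes (log2 -1.99 ± 0.27, adjusted p = 0.000277), while DKO cells had 0 counts. *Piezo2*, a mechanically gated channel, was at 1.42, 2.27 and 1.76 against 6.87, 7.87 and 6.32 (log2 -1.93 ± 0.17, adjusted p = 4.16e-07). In ∆CT cells *Trdn* was at 0.803 ± 0.293, level with K1030R cells (log2 0.02, adjusted p = 0.99). *Piezo2* was at 3.13 ± 0.834 there, above K1030R cells (log2 0.77, adjusted p = 0.0164). The carbonic anhydrases *Car2* and *Car3*, neighbours on chromosome 3, were at 2.05 ± 0.536 against 7.77 ± 0.36 and 1.44 ± 0.187 against 5.03 ± 0.458 (log2 -1.91 ± 0.22 and -1.79 ± 0.22). *Hmcn1*, hemicentin of the matrix, was at 0.777 ± 0.23 against 2.98 ± 0.339, and *Penk*, proenkephalin, at 0.628 ± 0.0787 against 2.29 ± 0.0869. *Enpep*, an aminopeptidase that cleaves angiotensin, was at 0.591 ± 0.403 against 2.61 ± 0.168, and lost its call without K1030R dish 1 (0.0814) or dish 3 (0.0966). *Bbox1*, of carnitine synthesis, was at 0.316 ± 0.163 against 1.33 ± 0.3 and lost it without K1030R dish 1 or 3 or IR dish 2 or 3 (0.0532 to 0.135). Of 29 ion channel and calcium handling genes *Trdn*, *Piezo2* and the sodium channel *Scn7a* (11.6 ± 1.62 against 22.4 ± 0.189) were called lower, the last not without K1030R dish 3 (0.132), and 10 were lower and 3 higher with no minimum fold. Of 21 muscle and contractile genes *Trdn* and *Car3* were called lower, and 4 were lower and 7 higher with no minimum fold, the former close to the 16.3% of all genes and the latter against 13.9%. All skeletal muscle markers together summed to at most 1.24 CPM in a library.

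Of the 132 lower genes 83 are on none of the lists, and some are named here after their values were seen. Secreted modulators among them were *Smoc2*, a calcium-binding matrix protein, at 26.7 ± 4.48 in K1030R against 62.3 ± 2.48 in IR cells, *Ccn3* at 47.3 ± 3.26 against 104 ± 3.25, the BMP regulator *Bmper* at 81.6 ± 4.16 against 146 ± 4.47 and *Enpp2*, which makes lysophosphatidic acid, at 8.59 ± 1.29 against 22.7 ± 0.762. Transcription factors among them were *Sox4* at 104 ± 5.41 against 218 ± 12.3, *Maf* at 4.12 ± 0.619 against 13 ± 1.02, *Osr2* at 5.33 ± 0.91 against 11.4 ± 2.07 and the homeodomain protein *Hopx* at 3.81 ± 0.492 against 12 ± 1.88. *Rgs4*, which shortens G-protein signals, was at 72 ± 3.37 against 123 ± 4.64. Their log2 fold changes ran from -1.66 for *Hopx* to -0.77 for *Rgs4*.

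Cyclin D genes were among the 28 higher genes. *Ccnd1*, cyclin D1, which drives entry into the cell cycle, had a CPM of 45.2, 32.6 and 44.1 in K1030R and 15.6, 17.1 and 15.5 in IR dishes, 2.53-fold higher (log2 1.34 ± 0.16, adjusted p = 0.00267 in edgeR's minimum-fold test). *Ccnd2*, cyclin D2, was at 8.94, 7.85 and 7.76 against 3.37, 3.15 and 3.61 (log2 1.27 ± 0.12, adjusted p = 8.4e-05). Of 39 tested cell cycle genes these 2 were called (0.182% of all genes were called higher), 32 were higher (13.9% of all genes) and 1 lower (16.3%) with no minimum fold, and the median was 0.34, with 0.70 the largest value among those not called. The 1 lower was *E2f1*. Of 29 CDK inhibitors and p53 targets none was called, 9 were lower and 4 higher, and *Cdkn1a*, p21, was at 44.9 ± 3.72 against 47.4 ± 0.956 (adjusted p = 0.334). In the other lines *Ccnd1* was at 48.4 ± 3.33 in DKO, 34.3 ± 3.09 in JMO and 32.8 ± 8.08 in ∆CT cells, which leaves IR cells lowest, while *Ccnd2* was low in both IR and ∆CT cells (3.37 ± 0.374) and at 6.85 ± 0.528 in DKO cells. Between ∆CT and K1030R cells *Ccnd2* differed by -1.27 on the log2 scale (adjusted p = 5.75e-09).

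**Figure D4:**
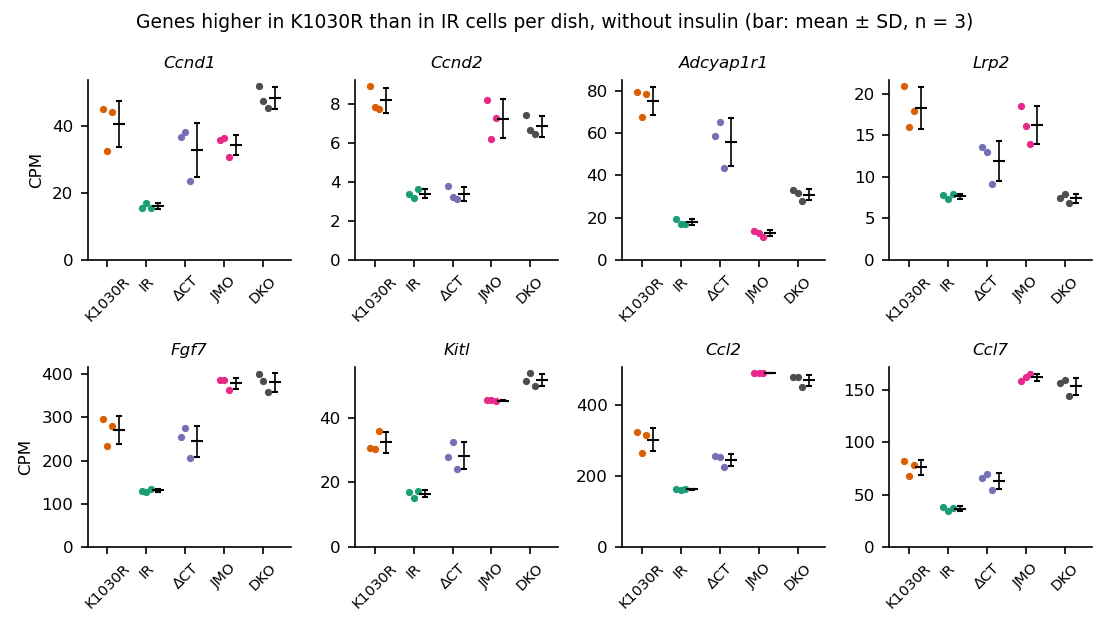
CPM of 8 genes called higher in K1030R than in IR cells, in each dish without insulin, with points for dishes and a bar for mean ± SD (n = 3) in 5 lines. All 3 K1030R dishes lie above all 3 IR dishes in every panel, and for *Fgf7*, *Kitl*, *Ccl2* and *Ccl7* DKO and JMO dishes lie higher still.

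*Adcyap1r1*, the receptor for the neuropeptide PACAP, rose more than the cyclins, with 79.7, 68 and 78.6 in K1030R and 19.4, 17 and 16.8 in IR dishes, 4.22-fold higher (log2 2.08 ± 0.13, adjusted p = 2.28e-07). DKO cells had 30.9 ± 2.65, JMO cells 12.4 ± 1.42 and ∆CT cells 55.9 ± 11.2 (mean ± SD, n = 3). K1030R cells had the highest mean, and ∆CT cells lay nearer to them than to IR cells. Between ∆CT and K1030R cells *Adcyap1r1* differed by -0.43 on the log2 scale (adjusted p = 0.0418). *Lrp2*, megalin, an endocytic receptor, was at 21, 16 and 17.9 against 7.73, 7.28 and 7.9 (log2 1.25 ± 0.12, adjusted p = 0.000251). *Cited1*, a coactivator, was at 3.65 ± 0.969 against 1.37 ± 0.257, a call lost without K1030R dish 1 (0.0876) or IR dish 2 (0.072). *Atp6v0a4*, a proton pump subunit, was at 1.93 ± 0.195 against 0.567 ± 0.236, the transporter *Slco4a1* at 2.36 ± 0.473 against 0.796 ± 0.169, *Nova1*, a splicing regulator, at 1.26 ± 0.157 against 0.283 ± 0.0891, and the siderophore-binding protein *Lcn2* at 3.7 ± 0.0847 against 1.51 ± 0.303. In ∆CT cells *Cited1* was at 4.18 ± 0.831, nearer to K1030R than to IR cells, and *Nova1* at 0.17 ± 0.169, below the IR mean. *Pde2a*, a phosphodiesterase of cyclic nucleotides, was at 5.51, 6.34 and 5.8 in K1030R and 0.0854, 0.0543 and 1.43 in IR dishes, so 1 IR dish differed from the other two, and its call was lost without any single library except IR dish 3 (adjusted p of 0.0885 to 0.243).

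A few growth factors and chemokines were called higher too. *Fgf7*, keratinocyte growth factor, had 297, 233 and 281 in K1030R and 130.2, 127 and 135 in IR dishes (log2 1.05 ± 0.09, adjusted p = 0.00139). *Kitl*, the ligand of the KIT receptor, was at 30.8, 30.3 and 36.1 against 17, 15.2 and 17.3 (log2 0.97 ± 0.08, adjusted p = 0.00104). Of 62 growth factors and receptor kinases these 2 were called higher, and *Pdgfra* and *Mertk*, a receptor for the clearance of dying cells (7.31 ± 0.284 against 14.1 ± 1.1), were called lower, the latter not without K1030R dish 1 (0.0965) or IR dish 3 (0.114). With no minimum fold 18 members of that list were lower and 13 higher, with a median of -0.03. *Ccl7* and *Ccl2*, neighbouring genes for monocyte chemoattractants, were the 2 called of 28 chemokines and interleukins, at 81.8, 67.4 and 78.7 against 38.6, 34.1 and 37.2 and 324, 266 and 317 against 164, 161 and 163 (log2 1.05 ± 0.10 and 0.89 ± 0.07, adjusted p = 0.00218 and 0.0073). *Ccl2* lost its call without K1030R dish 1 (0.0614) or dish 3 (0.0501). In ∆CT cells *Fgf7* was at 245 ± 35.7, *Kitl* at 28.2 ± 4.19, *Ccl7* at 63.2 ± 7.7 and *Ccl2* at 245 ± 17. Each of these means lay nearer to the K1030R than to the IR mean. Of the 28 members 8 were higher and 2 lower with no minimum fold. The 6 leukocyte markers summed to 7.76 to 8.36 CPM in K1030R and 8.33 to 10.1 in IR dishes, with *Adgre1* and *Tyrobp* at 0. Of the 3 that passed the filter *Lyz2* was lower with no minimum fold (5.19 ± 0.43 against 6.82 ± 0.842, adjusted p = 0.0192, but 0.0677 to 0.0919 without K1030R dish 1 or 3 or IR dish 2 or 3), while *Csf1r* (0.568 ± 0.181 against 0.333 ± 0.0902, adjusted p = 0.167) and *Cd68* (1.95 ± 0.219 against 2.14 ± 0.173, adjusted p = 0.66) did not pass. *Ptprc*, below the filter, had 0.302 to 0.355 in K1030R and 0.0427 to 0.247 in IR dishes. The part of these cells in the chemokine values was not tested.

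Of the 28 higher genes 19 are on no list. The transferrin receptor *Tfrc*, at 140.3, 98.1 and 113 in K1030R and 55.9, 57.2 and 59.5 in IR dishes, the vitamin D receptor *Vdr*, at 89.5, 63.6 and 80.7 against 39.8, 38.7 and 38.8, and the interleukin-1 receptor *Il1r1*, at 59.6, 59 and 60.4 against 34.4, 37 and 35.9, were named after their values were seen. In *Tfrc* and *Vdr* the K1030R dishes varied most, with dish 2 lowest, but no dish reached the IR range. *Spata5l1*, an ATPase gene, had 36 counts over the 3 K1030R libraries and 0 over the 3 IR libraries, at least 13.3-fold higher with 3 counts over the group as the limit, while the same IR line had counts in all of its insulin libraries.

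Genes of insulin signalling itself held 1 call. Of 46 tested members 1 was called lower (0.857% of all genes), 13 were lower (16.3% of all genes) and 4 higher (13.9%) with no minimum fold, and the median was -0.06. The called gene was *Enpp1*, an ectoenzyme that binds and restrains the insulin receptor, at 33.2, 36.3 and 30.7 in K1030R and 57.9, 59.5 and 58 in IR dishes (log2 -0.81 ± 0.06, adjusted p = 0.00713), which was lost without K1030R dish 3 (0.159). *Irs2* was at 42.4 ± 1.84 against 45.3 ± 4.15 (log2 -0.10 ± 0.05, adjusted p = 0.159), but was lower without IR dish 3 (log2 -0.146, adjusted p = 0.0393, no minimum fold). Among 27 FOXO targets, which AKT holds down, none was called, 15 were lower and 3 higher with no minimum fold (16.3% and 13.9% of all genes), and the median was -0.29. *Txnip*, an inhibitor of glucose uptake, had 97.6, 106 and 94.5 in K1030R and 147, 152 and 151 in IR dishes (log2 -0.59 ± 0.04, adjusted p = 1.74e-13), and *Klhl24* 212, 230.4 and 221 and 319.98, 331 and 321 (log2 -0.55 ± 0.04, adjusted p = 1.27e-12). Of 18 genes of the IGF system *Igfbp4*, an IGF-binding protein, was called lower (6.45 ± 0.214 against 12.9 ± 1.53), but not without K1030R dish 1 (0.0745) or 3 (0.084) or IR dish 1 (0.103) or 2 (0.104).

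Early response and ERK feedback genes split into 2 directions. Of 43 tested members *Fosl1* was called higher, 13 were higher and 10 lower with no minimum fold, and the median was 0.01. *Fosl1*, an AP-1 subunit, had 9.47, 6.95 and 8.54 in K1030R and 4.14, 3.26 and 3.51 in IR dishes (log2 1.18 ± 0.16, adjusted p = 0.00989), a call lost without K1030R dish 1 (0.0825) or 3 (0.0501) or IR dish 2 (0.0737) or 3 (0.0603). Members higher with no minimum fold, named after their values were seen, included the ETS factors *Etv4* (4.73 ± 0.677 against 2.34 ± 0.0594) and *Etv5* (26.9 ± 1.84 against 16.2 ± 0.0142) and the ERK inhibitors *Spry4* (6.85 ± 0.948 against 3.3 ± 0.188) and *Dusp6* (11.9 ± 1.72 against 8.84 ± 0.832). *Fos* was lower, at 1.95, 2.62 and 1.97 in K1030R and 5, 4.67 and 3.46 in IR dishes (log2 -1.0 ± 0.16, adjusted p = 1.18e-05 without a minimum fold), and so was *Egr1* (67.9 ± 1.26 against 109 ± 9.7). *Egr2* was at 4.03, 3.22 and 3.83 against 3.93, 4.13 and 3.46, with overlap (adjusted p = 0.791).

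Most listed enzymes of lipid synthesis were higher in K1030R by small amounts. Of 22 genes of cholesterol synthesis none was called, yet 20 were higher (13.9% of all genes) and none lower (16.3%) with no minimum fold, with a median of 0.29 and a range from 0.07 to 0.57. *Hmgcs1*, which makes HMG-CoA, had 1095, 1087 and 1113 in K1030R and 846, 871 and 911 in IR dishes (log2 0.33 ± 0.04, adjusted p = 2.42e-08). *Sqle*, squalene epoxidase, was at 449, 452 and 457 against 374, 377 and 388 (log2 0.25 ± 0.04, adjusted p = 2.17e-06). In both genes every K1030R dish lay above every IR dish. Of 23 genes of fatty acid synthesis 15 were higher and 1 lower (median 0.17), with *Scd2*, a desaturase, at 3813 ± 71.8 against 3076 ± 67.7 and *Acly*, which supplies acetyl-CoA, at 832 ± 23.2 against 694 ± 17.4. Of 17 genes of SREBP control and sterol uptake *Apoe* was called lower (1.99 ± 0.502 against 4.48 ± 1.07), a call lost without K1030R dish 1 (0.426) or 2 (0.105) or IR dish 1 (0.211) or 2 (0.298).

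Secretory chaperones were higher where they differed, with a smaller median than either list of lipid synthesis. Of 23 chaperones of the endoplasmic reticulum none was called, 15 were higher (13.9% of all genes) and none lower (16.3%) with no minimum fold, and the median was 0.13. *Pdia6*, a disulfide isomerase, had 339.7, 333 and 361 in K1030R and 278, 271 and 266 in IR dishes (log2 0.34 ± 0.03, adjusted p = 2.43e-10), and *Xbp1*, the factor that raises such chaperones, 46.1, 44.1 and 48.1 and 30.6, 28.9 and 28.7 (log2 0.65 ± 0.06, adjusted p = 1.44e-10). Of 30 glycolysis genes none was called, 7 were lower and 11 higher. Of 77 ribosomal protein genes none was called, 2 were lower and 10 higher, with a median of 0.03. In edgeR's minimum-fold test none was called among 32 ATF4 targets, 36 NRF2 targets and peroxiredoxins, 25 genes of branched-chain amino acid catabolism and 21 Notch genes either, where 10, 5, 5 and 9 were lower and 2, 11, 3 and 1 higher with no minimum fold.

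**Figure D5:**
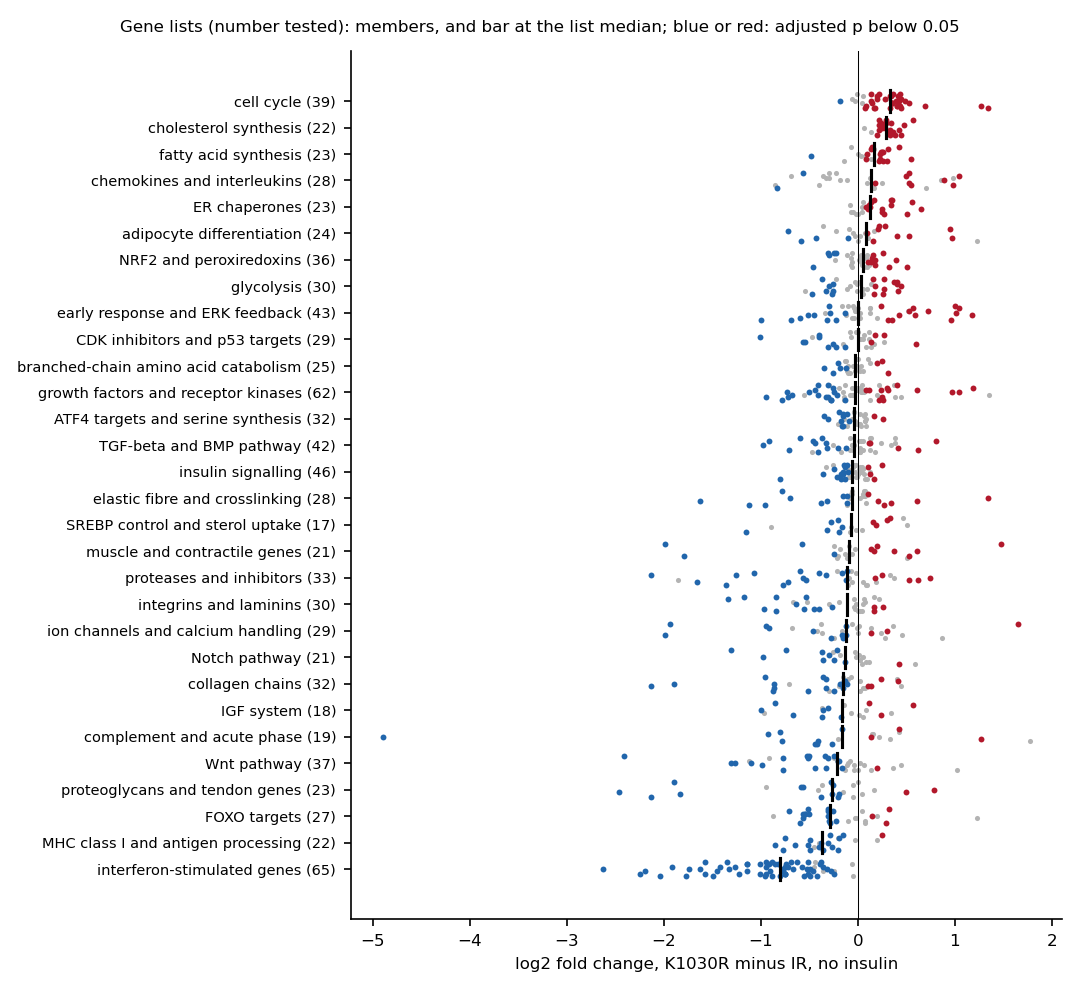
Log2 fold change, K1030R minus IR without insulin, of each tested member of 30 gene lists, with the number tested beside each name and a black bar at the list median. Blue and red mark members lower and higher at an adjusted p below 0.05 with no minimum fold, and the interferon-stimulated list stands lowest with a median of -0.80 and the cell cycle list highest with 0.34.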

How the data were processed

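The authors trimmed 100-base single-end reverse-stranded mRNA libraries with fastp, quantified them with kallisto against Ensembl 98 mouse transcripts and deposited expected counts per gene. These were rounded, scaled by TMM and fitted in edgeR 4.0.16 (R 4.3.3, quasi-likelihood, robust) over all 26 libraries in 9 groups, keeping genes that passed 0.5 CPM in 4 or more libraries. A gene was called at a Benjamini-Hochberg adjusted p below 0.05 against a minimum fold of 1.5, two-sided. Other adjusted p-values have no minimum fold. Errors are SE for log2 fold changes and SD for CPM. Low-count limits cover counting error only. limma 3.58.1 and DESeq2 1.42.0 were alternatives, and the code was tested on simulated data. Coordinates are from GENCODE M21 (GRCm38).

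Named genes were *Insr* and *Igf1r*, the 20 lower and 12 higher genes with the largest log2 fold change among those with a gene symbol other than a Gm, Rik, pseudogene or clone name, a mean CPM of at least 1 and no overlap, up to 4 called members of each list or else the 2 with the smallest adjusted p, and single genes of interest. The members and lists were chosen with earlier results of these data known. Replicate numbers name dishes and were not used as pairs in the main fit.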

Additional observations from a re-analysis of the deposited data

Results flagged for a closer look

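The difference between K1030R and IR cells was itself different with and without insulin in 57 genes (0.37% of those tested, edgeR interaction test), and the 4 described here were named in the comparison above. For *Fos* the difference, K1030R minus IR with insulin minus the same without, was -4.1 on the log2 scale (adjusted p = 4.03e-15), and for *Egr2* -3.19 (adjusted p = 1.56e-15). *Egr2* is annotated under a second identifier with the same counts. For *Insr* it was -0.43 (adjusted p = 6.62e-05), where the IR dishes had a CPM of 89.8, 87.5 and 85.2 with insulin and 65.9, 67.8 and 69.3 without, and the K1030R dishes 69.3, 65.5 and 69.8 with insulin. For *Spata5l1* it was -6.94 (adjusted p = 0.0266), from 0 counts in all IR dishes without insulin. Without IR dish 3 of the unstimulated group the 57 genes became 182.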

How the results depend on the processing

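The 160 genes called (28 higher, 132 lower) became 290 (83 and 207) with no filter on low counts, where 71.4% of the calls were lower against 82.5%. They became 95 (17 and 78) in DESeq2, 105 (16 higher and 89 lower) in limma voom with TREAT, 4650 (2147 and 2503) with no minimum fold and 65 (6 and 59) at an adjusted p below 0.001. Leaving out 1 library gave 113 to 162 in all, 18 to 36 higher and 95 to 126 lower. A fit to the 6 libraries alone called 183 (36 higher and 147 lower), and 143 of the 160 were kept. With the replicate number as a block 169 genes were called (37 higher and 132 lower), of which 157 were among the 160. Same-numbered dishes had residual correlations of 0.0411, -0.00926 and 0.0432, and differently numbered dishes -0.0861 to 0.0518. Such values cannot show whether dishes of 1 number share a preparation, which was not tested. The 193 calls with insulin became 5230 with no minimum fold and 154 to 176 when 1 library was left out. The 57 interaction genes became 65 with the block and 52 to 182 when 1 library was left out, 182 without IR dish 3, a setting added after seeing the data. When 1 library was left out the log2 fold change of *S100b* ran from -0.364 to 0.0705 (positive without IR dish 3) and that of *Egr2* from -0.128 to 0.0326 (positive without K1030R dish 2), neither past the test. Of 767 values of the 59 called genes that are named, 669 kept their direction and call, 98 kept their direction only and 0 reversed. Over the 30 gene lists 35 of 270 medians moved and 8 changed sign, and 31 of 270 member counts moved. *Atp6v0a4*, *Col14a1*, *Hmcn1*, *Lcn2*, *Ltbp2*, *Nova1*, *Penk*, *Podn* and *Slco4a1* lost their call only in DESeq2 or limma, and *C4b* also with unrounded counts or with the 6 libraries alone. The cause of these shifts was not tested. A gene at 0.5 CPM has about 10 counts in these libraries, and of the 160 called genes *C4b* was the 1 below 0.5 CPM in both groups.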
